A study of Mus musculus with 42 samples.

Results

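The natural killer (NK) receptor genes are the lectin-like receptor genes of the Klr families together with a small set of genes that NK cells use for recognition, signalling and killing. The members were all genes whose single symbol in the array's probe table begins with Klr, a letter from a to k and a digit, which gave 25 genes, and the 11 genes Ncr1, Nkg7, Cd244a, Cd226, Cd160, Fasl, Ctsw, Tbx21, Eomes, Xcl1 and Tyrobp. They are 36 of the 15277 genes with a single symbol on the array. Spleen RNA of female BALB/c mice, labelled wild-type in the groups up to 72 h, was hybridised on 42 arrays, each against a universal mouse reference RNA. There were 6 arrays of untreated mice and 4 of each of 9 treated groups, which the series' design text calls independent biological replicates. Mice received 400 µg of oligodeoxynucleotide (ODN) into the peritoneum, either a mixture of the CpG ODN 1555 and 1466 or a mixture of the control ODN 1612 and 1471. CpG ODN is a ligand of the endosomal DNA receptor TLR9. Spleens were taken 3 h, 9 h, 24 h and 72 h and 5, 7, 9 and 14 days after CpG ODN and 3 h after control ODN. Control ODN at later times was not analysed here, and the age of the mice is not given in the sources used here.

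NK cells decide whether to kill through a balance of inhibitory and activating receptors. In mice the lectin-like receptors are encoded mostly in 1 gene complex. Its Klra genes encode the Ly49 receptors, many of which bind MHC class I molecules and inhibit, whereas others signal through the adaptor Tyrobp (DAP12) and activate. The Klrb1 genes encode the NKR-P1 receptors, Klrd1 and the Klrc genes encode CD94 and its NKG2 partners, and Klrk1 encodes the activating receptor NKG2D, which reads stress-induced ligands. The content of the Klra cluster differs between strains: BALB/c mice are known to lack Ly49D and Ly49H, the products of Klra4 and Klra8. A feature annotated to one of these genes, or to another Klra gene, may therefore report a relative, and the probe sequences were not used here. Counts of Klra members may thus count the same transcript more than once.

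Of the 36 members, 35 matched a gene in the RefSeq table (Klra22 did not), 26 had a promoter sequence there, and 21 lie on chromosome 6 of the main assembly. Among protein-coding genes, Klre1, Klrd1, Klrk1 and Klrc3 follow each other without a gap, and Klra17, Klra5, Klra6, Klra4 and Klra8 do too. Klra2 stands apart at the end of the cluster, with 5 other protein-coding genes between it and Klra1. The 250 bases before the start of 6 members are given below from RefSeq (GRCm38.p6, a C57BL/6 reference, not the BALB/c sequence). Klra2 and Xcl1 are the members that stood higher than in untreated spleen at the most CpG times. Klra17, Klra4 and Klra8 are relatives of Klra2 in sequence, shown because Klra17 and Klra4 fell at some times when Klra2 was higher. Klrk1 was higher from 3 h to 5 days.
Klra2: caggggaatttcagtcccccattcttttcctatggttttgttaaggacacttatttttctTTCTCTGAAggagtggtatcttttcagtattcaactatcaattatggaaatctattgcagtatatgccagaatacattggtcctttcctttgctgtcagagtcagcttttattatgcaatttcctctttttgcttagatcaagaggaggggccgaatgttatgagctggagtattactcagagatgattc
Klra17: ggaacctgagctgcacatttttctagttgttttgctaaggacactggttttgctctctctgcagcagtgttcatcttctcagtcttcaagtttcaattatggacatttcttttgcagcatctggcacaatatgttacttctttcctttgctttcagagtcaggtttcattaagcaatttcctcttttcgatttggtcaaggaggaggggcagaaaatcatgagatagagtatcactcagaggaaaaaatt
Klra4: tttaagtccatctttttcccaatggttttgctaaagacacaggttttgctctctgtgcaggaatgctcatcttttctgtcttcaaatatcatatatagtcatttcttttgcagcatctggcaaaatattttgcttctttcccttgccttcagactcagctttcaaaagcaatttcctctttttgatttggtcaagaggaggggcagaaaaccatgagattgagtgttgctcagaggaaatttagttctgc
Klra8: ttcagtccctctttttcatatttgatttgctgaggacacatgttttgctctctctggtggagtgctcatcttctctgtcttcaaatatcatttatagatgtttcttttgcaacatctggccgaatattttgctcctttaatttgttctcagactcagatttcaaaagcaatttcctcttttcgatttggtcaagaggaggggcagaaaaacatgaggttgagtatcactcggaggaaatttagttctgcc
Klrk1: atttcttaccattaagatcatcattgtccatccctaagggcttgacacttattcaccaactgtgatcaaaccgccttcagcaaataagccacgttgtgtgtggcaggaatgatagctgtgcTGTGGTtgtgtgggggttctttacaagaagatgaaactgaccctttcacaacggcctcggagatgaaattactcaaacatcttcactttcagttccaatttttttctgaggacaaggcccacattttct
Xcl1: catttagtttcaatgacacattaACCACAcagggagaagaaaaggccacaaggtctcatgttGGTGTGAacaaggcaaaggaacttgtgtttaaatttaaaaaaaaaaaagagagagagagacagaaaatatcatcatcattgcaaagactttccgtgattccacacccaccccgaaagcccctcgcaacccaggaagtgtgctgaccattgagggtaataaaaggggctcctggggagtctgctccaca
All 6 lie on the minus strand, at chr6:131247363-131247612 for Klra2, chr6:129876673-129876922 for Klra17, chr6:130067272-130067521 for Klra4 and chr6:130129899-130130148 for Klra8. Klrk1 is at chr6:129623865-129624114 and Xcl1 at chr1:164935523-164935772. Capitals mark a match, on either strand, to 1 of 3 motifs of factors used by NK cells, and no marked match overlaps another in these sequences. The spaced motif TTCNNNGAA, bound by STAT factors, was found in the Klra2 sequence and in 3 of the 26 members (Klra10, Klra2 and Nkg7), against 7.18% of 27025 promoters of the same length. The RUNX core TGTGGT was in 11 of 26 members, Klrk1 and Xcl1 among them, against 14.2% of all promoters. The T-box core GGTGTGA was in Xcl1 and Nkg7, against 3.31% of all promoters. The 4 Klra promoters shown were 72.4% to 84.8% identical over 6 pairs (median 78.0%), while the 36 pairs of all 9 Klra promoters ranged from 38.8% to 84.8% (median 45.8%). Members of different Klr subfamilies were 33.6% to 50.8% identical over 110 pairs (median 42.4%). A match describes letters in this window and was not tested as a binding site.

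Every value below is a log2 ratio of spleen over reference, the scale the authors deposited. Its base and direction were inferred, since neither is stated, and a level may be compared between groups for 1 gene but not between genes. A difference is group minus group on the same scale, given with the standard error of the fit (±). It is called, and described as higher, lower, rose or fell, at a Benjamini-Hochberg adjusted p below 0.05 in limma. The ± after a mean is the SD over arrays. In bulk RNA, more cells of a type and more RNA per cell cannot be told apart.

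Array medians lay between -0.014 and 0.019, correlations between arrays ran from 0.746 to 0.978, and no 2 arrays were identical. Each array lacked a value for 173 to 1740 features, and 8 arrays lacked more than 1000. A mean of 9 pancreatic acinar genes, which are not spleen genes, ranged from 0.0899 to 6.74 over the arrays and was both low and high within most groups (0.595 to 5.92 in untreated, 0.0899 to 4.64 at CpG 72 h). The part of these differences in the results was not tested. Arrays whose database numbers lie within 12 of the next form 10 runs. The control ODN, CpG 72 h, 7 days and 14 days groups fill 1 run, and untreated arrays share a run only with some CpG 3 h arrays. For CpG 72 h, 5, 7, 9 and 14 days against untreated, run and group cannot be told apart. The comparison with control ODN in the same run is given beside the counts of 72 h, 7 days and 14 days. For single members it is given in part, and for each one called against untreated at these times but not against control ODN. No such comparison exists for 5 and 9 days, whose arrays lie in other runs than untreated and control ODN. The labels word the RNA extraction differently at 5, 7, 9 and 14 days, although both wordings name TRIzol. Markers of the tissue were present, with 7 B cell markers at a mean of 3.23 ± 0.26 (SD, n = 6) in untreated spleen.

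Calls among the NK receptor genes were most numerous at 72 h after CpG ODN. At 3 h, 4 of 36 members (11.1%) were higher and 0 lower, where 7.7% of all genes were called higher and 3.93% lower. At 9 h 3 of 36 (8.33%) were higher and 0 lower, against 5.07% and 3.45% of all genes (8.52% in either direction). Both shares are near those of all genes. By 24 h 11 of 36 were higher and 0 lower (8.03% and 2.87% of all genes), and the median member differed by 0.55 against 0.02 for all genes. The peak came at 72 h, when 20 of 36 were higher and 1 lower (8.94% and 6.01% of all genes, 15% in either direction), with a median of 0.79 against 0.02 for all genes. The runs of database numbers were also entered as a fixed block, on genes present on all arrays. Then 0 of 26 members were called at 3 h, 0 at 9 h and 1 at 24 h. Of all 12588 genes in that fit, 392, 142 and 133 were called.

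At 5, 7 and 9 days members were called in both directions. At 5 days 7 of 34 members tested (20.6%) were higher and 8 (23.5%) lower, against 17.5% and 13.4% of all genes. At 7 days 3 of 36 (8.33%) were higher and 4 (11.1%) lower, against 8.68% and 6.89%. The shares of higher calls at 5 and 7 days are near those of all genes. At 7 days, without CpG 7 days replicate 2 or 3 there were 4 calls in place of 7. At 9 days 4 of 34 (11.8%) were higher and 7 (20.6%) lower, against 8.4% and 5.12%. By 14 days 0 of 34 were higher and 2 lower (Tbx21 and Fasl), against 2.77% and 1.77% of all genes (4.54% in either direction), and 7 had an unadjusted p below 0.05. The 14 days count was 1 without untreated replicate 1, 2, 3, 4 or 6 or without any 1 of the 4 CpG 14 days arrays, and 0 without the 8 arrays that lack many features. Without those 8 arrays 82 of 15022 genes were called at 14 days. Over the 8 CpG times and untreated, limma's F test called 31 of 33 members, against 63.5% of 14557 genes.

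**Figure D1:**
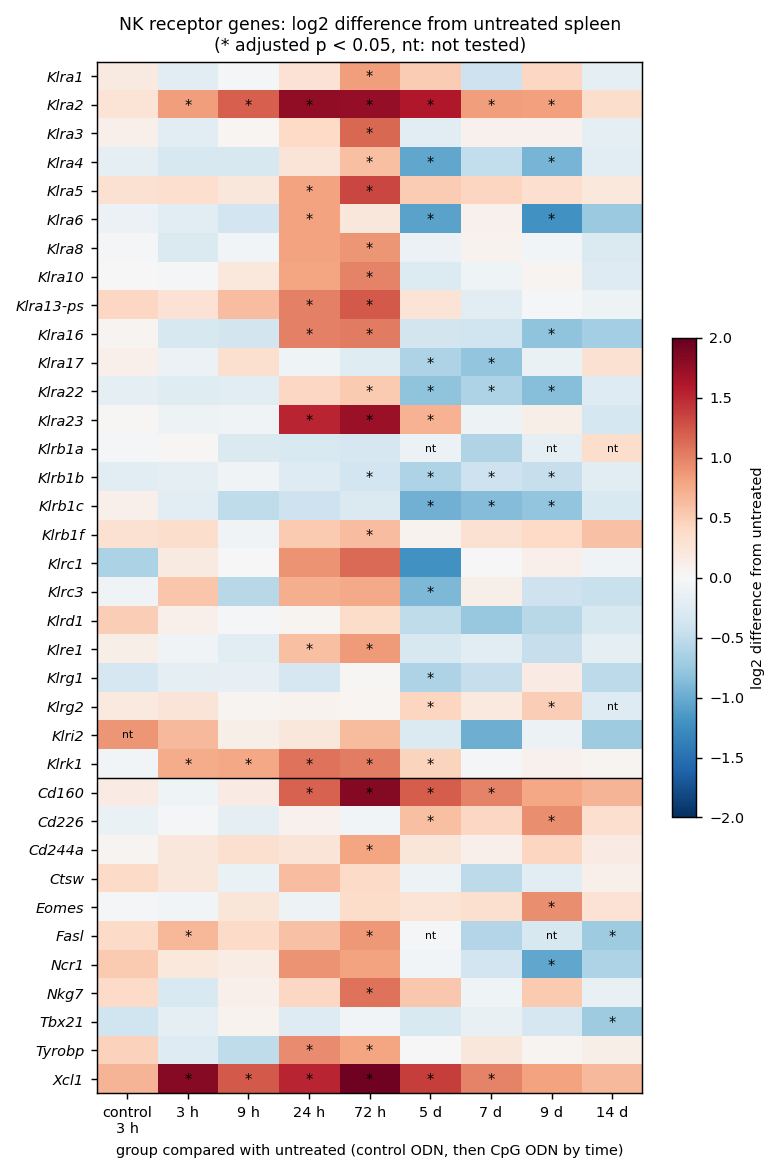
Log2 difference from untreated spleen (colour, blue lower and red higher, scale from -2 to 2) for the 36 members in rows, Klr genes above the line, at control ODN 3 h and the 8 CpG times in columns. Asterisks mark adjusted p below 0.05 and nt a gene not tested. Red fills the 24 h and 72 h columns for most Klra genes, and blue appears for a subset of Klra and Klrb1 genes from 5 to 9 days.

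With control ODN in place of untreated, all in 1 run, 16 of 35 members were higher at 72 h and 0 lower (7.61% and 9.3% of all genes), with a median of 0.69, and 7 of the 16 kept their call without any 1 of the 8 arrays. This comparison sets 72 h of CpG ODN against 3 h of control ODN, so time differs as well as the oligodeoxynucleotide. Against the same control arrays 1 of 35 members (Cd226) was higher and 6 were lower at 7 days, where 10.2% of all genes were higher and 14.6% lower. At 14 days 0 of 33 were higher and 2, Fasl and Ncr1, were lower, against 2.62% and 3.12% of all genes. Without the 8 arrays that lack many features, 13 members were called at 72 h in place of 21. Over all genes 879 of 14827 were then called against untreated, in place of 2267 of 15161. For control ODN at 3 h against untreated no member was called (0 of 35 in limma, 2 at an unadjusted p below 0.05), where 2.45% of all genes were higher and 1.07% lower. Without control ODN replicate 4, 4 members were called in that comparison.

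Ly49 receptors. The Klra group has 13 members, with a median difference of 0.99 at 72 h. Of these 11 rose at 72 h and 6 at 24 h, where 8.94% and 8.03% of all genes were higher. At 5 days 2 were higher and 4 lower than in untreated spleen, where 17.5% of all genes were higher and 13.4% lower (30.9% in either direction). Klra2, which encodes an inhibitory-type Ly49 receptor known from myeloid cells, was higher at more times than any other member. In untreated spleen its log2 ratio ran from -0.61 to -0.39 with a median of -0.46. At 3 h after CpG ODN the arrays read 0.27, 0.04, 0.35 and 0.74, and at 9 h 1.20, 0.80, 1.01 and -0.17. All of these arrays lay above every untreated array, although 1 of the 9 h arrays was well below the others. The values were 1.47, 0.44, 1.66 and 1.58 at 24 h and 1.68, 1.23, 1.39 and 0.76 at 72 h, and 5 days after treatment they were 0.98, 1.32, 1.36 and 0.77. They then came down, to 0.62, 0.29, 0.46 and 0.02 at 7 days, 0.34, 0.72, 0.17 and 0.07 at 9 days and -0.32, -0.42, 0.22 and -0.04 at 14 days. Klra2 was thus higher at 7 of the 8 times, by 0.84 ± 0.21 at 3 h, 1.78 ± 0.21 (adjusted p = 1.04e-07) at 24 h, 1.60 ± 0.21 at 5 days and 0.82 ± 0.21 at 9 days. The difference of 0.35 ± 0.21 at 14 days was not called (adjusted p = 0.362), and without CpG 9 days replicate 2 the difference at 9 days was 0.68 (adjusted p = 0.0509). When runs entered the fit as a fixed block, Klra2 kept its call at 24 h (2.23, adjusted p = 0.0255) and lost it at 3 h (1.16, adjusted p = 0.153) and 9 h (1.71, adjusted p = 0.12). Klra2 was higher at 72 h against control ODN of the same run (1.48 ± 0.24). At 7 days that difference was 0.56 ± 0.24 and not called (adjusted p = 0.0779). The mean of 9 monocyte and macrophage markers was 1.82 in untreated spleen, 2.69 at 24 h and 2.67 at 72 h. The part of these markers in the Klra2 result was not tested.

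Klra23, a gene of the Ly49 cluster of other strains, had the largest 72 h difference of the Klra genes after Klra2. It read from -0.82 to 0.27 with a median of 0.06 in untreated spleen. The 4 arrays at 24 h gave 1.83, 1.73, 1.52 and 0.65, and those at 72 h gave 2.04, 1.72, 1.71 and 1.10. Every one of these 8 arrays was above every untreated array. By 5 days the values had come down to 0.57, 0.55, 0.84 and 0.46, and at 14 days they were -0.64, -0.43, -0.07 and -0.60, within or near the untreated range. Klra23 rose by 1.52 ± 0.25 (adjusted p = 4.56e-05) at 24 h and by 1.73 ± 0.25 (adjusted p = 9.66e-06) at 72 h. The difference at 5 days (0.69 ± 0.25) lost its call without untreated replicate 2 or 6 or CpG 5 days replicate 1, 2 or 3 (0.54 to 0.71, adjusted p = 0.0548 to 0.0963).

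Klra16, another gene of the cluster outside the C57BL/6 set, was called in both directions. Its untreated arrays ran from -0.59 to 0.18 with a median of -0.17. At 24 h they gave 1.18, 1.22, 0.72 and 0.12 and at 72 h 1.01, 1.00, 0.65 and 0.68. At 9 days the 4 arrays lay together at -1.12, -1.11, -0.91 and -0.90, below every untreated array. The gene was higher by 1.01 ± 0.23 (adjusted p = 0.00291) at 24 h and 1.04 ± 0.23 at 72 h, and lower, with a difference of -0.81 ± 0.23 (adjusted p = 0.0169) at 9 days. At 14 days the arrays (-1.09, -0.67, -0.81 and -0.98) were all below the untreated ones without a call (-0.68 ± 0.23, adjusted p = 0.0763). With runs as a fixed block the 24 h difference was 1.13 and not called (adjusted p = 0.429).

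Klra4, which encodes an activating Ly49 receptor in C57BL/6 mice, also had calls in both directions. It read from -1.48 to -0.68 with a median of -0.78 in untreated spleen. The arrays at 72 h were spread, at -1.05, 0.42, -0.23 and -0.38, with 1 of 4 inside the untreated range. Those at 5 days were tight, at -1.90, -2.11, -1.89 and -1.94, and those at 9 days read -1.53, -2.03, -1.92 and -1.91, all below every untreated array. Klra4 was higher at 72 h by 0.60 ± 0.20 (adjusted p = 0.0328), and lower, with a difference of -1.05 ± 0.20 (adjusted p = 0.000112) at 5 days and -0.93 ± 0.20 (adjusted p = 0.00128) at 9 days. The 72 h call was lost without untreated replicate 1 or 2 or CpG 72 h replicate 2 or 3 (0.36 to 0.58, adjusted p = 0.0523 to 0.25).

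Klra6 (Ly49F) had 2 features and read from 0.05 to 0.78 with a median of 0.58 in untreated spleen. It gave 0.83, 1.73, 1.74 and 0.89 at 24 h, -1.10, -0.73, -0.14 and -0.36 at 5 days and -0.68, -0.84, -0.58 and -0.82 at 9 days. The 24 h arrays were all above the untreated ones, while those at 5 and 9 days were all below. Klra6 was lower, with a difference of -1.07 ± 0.26 (adjusted p = 0.00175) at 5 days and -1.22 ± 0.26 (adjusted p = 0.00152) at 9 days, and at 7 days, between them, it differed by 0.09 ± 0.26 (adjusted p = 0.86). The difference at 24 h (0.81 ± 0.26) lost its call without untreated replicate 2, 5 or 6 or CpG 24 h replicate 2 or 3 (0.66 to 0.81, adjusted p = 0.0565 to 0.187), and with runs as a fixed block it was 1.79 (adjusted p = 0.207).

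Klra22 had values on 4 of 6 untreated arrays, at 0.29, 0.10, 0.26 and -0.03. The arrays read 0.97, 0.80, 0.15 and 0.77 at 72 h, -0.49, -0.41, -0.63 and -1.08 at 5 days, -0.36, -0.66, -0.36 and -0.43 at 7 days and -0.55, -0.92, -0.79 and -0.50 at 9 days. At 5, 7 and 9 days all arrays were below the untreated ones. Klra22 was lower, with a difference of -0.81 ± 0.18 (adjusted p = 0.000826) at 5 days, -0.61 ± 0.18 at 7 days and -0.85 ± 0.18 (adjusted p = 0.0016) at 9 days. Its rise at 72 h (0.52 ± 0.18) lost its call without any 1 of the 6 untreated replicates or without CpG 72 h replicate 1, 2 or 4 (0.42 to 0.56, adjusted p = 0.0503 to 0.16). The 7 days call was lost without untreated replicate 1 (-0.56) or CpG 7 days replicate 2 (-0.54), with adjusted p = 0.0521 and 0.0663. Klra22 was also higher at 72 h against control ODN of the same run (0.69 ± 0.18). At 7 days that difference was -0.43 ± 0.18 and not called (adjusted p = 0.0744).

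**Figure D2:**
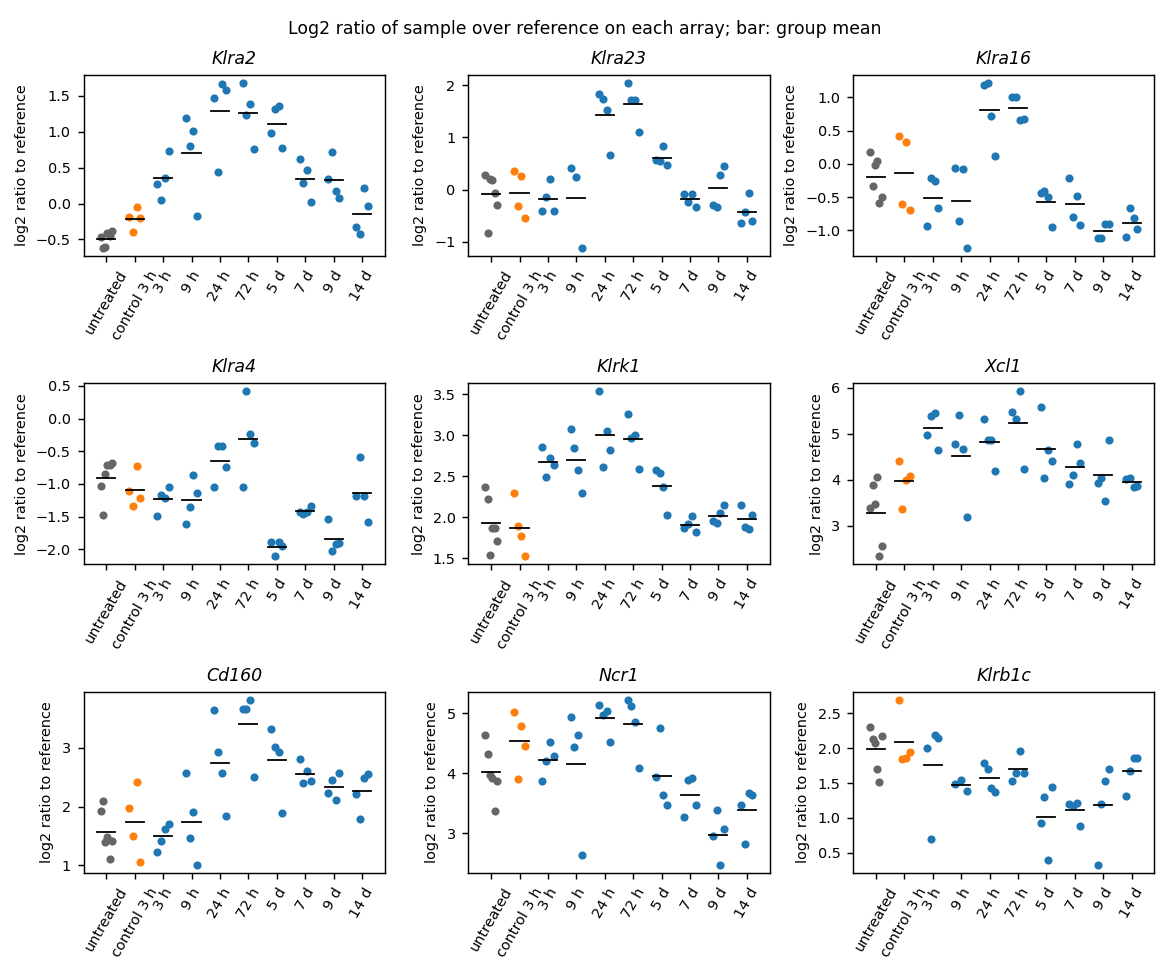
Log2 ratio of spleen over reference (vertical axis) on each array of 9 members, by group (untreated grey, control ODN orange, CpG ODN blue), with a bar at the group mean. Klra2, Klra23 and Klra16 are highest at 24 h and 72 h, and Klra4 is lowest at 5 and 9 days.

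Among the remaining Klra genes, Klra5 (1.33 ± 0.23), the pseudogene Klra13-ps (1.23 ± 0.23), Klra3 (1.16 ± 0.17), Klra10 (0.99 ± 0.31), Klra8 (0.89 ± 0.29) and Klra1 (0.83 ± 0.23) were higher at 72 h. The call of Klra10 was lost without CpG 72 h replicate 1, 2 or 3 or untreated replicate 5 or 6 (0.84 to 0.98, adjusted p = 0.0674 to 0.102). That of Klra8 was lost without the same arrays or untreated replicate 3 (0.77 to 0.92, adjusted p = 0.0529 to 0.0972), and that of Klra1 without CpG 72 h replicate 3 (0.72, adjusted p = 0.0708). Klra1 was not called at 72 h against control ODN of the same run (0.65 ± 0.25, adjusted p = 0.0709). The other genes of this list were higher there. Klra3 (Ly49C) is an inhibitory receptor, and it was also the only member that rose between 24 h and 72 h, by 0.76 ± 0.18 (adjusted p = 0.00826), where 3.6% of all genes were higher and 1.9% lower (5.5% in either direction). Klra17, known as Ly49Q and expressed by plasmacytoid dendritic cells and other myeloid cells, was not higher at any time. It differed by -0.24 ± 0.19 at 72 h (adjusted p = 0.413) and fell by 0.61 at 5 days and fell by 0.79 at 7 days, with overlap between the groups, and without CpG 5 days replicate 4 the 5 days call was lost (-0.53, adjusted p = 0.0574). A feature annotated jointly to Klra9 and Klra10, left out of the genes, was higher by 0.74 ± 0.25 at 72 h.

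NKR-P1 receptors. Of the 4 Klrb1 genes 2 were lower at 5, 7 and 9 days, against 13.4%, 6.89% and 5.12% of all genes. Klrb1f rose by 0.62 ± 0.18 (adjusted p = 0.02) at 72 h, a call lost without CpG 72 h replicate 1 or 2 (0.54 to 0.58, adjusted p = 0.0615 to 0.0891). Klrb1f was not called at 72 h against control ODN of the same run (0.32 ± 0.20, adjusted p = 0.297). Klrb1c encodes the NK1.1 antigen in C57BL/6 mice, an antigen that BALB/c mice do not display. Its level ran from 1.51 to 2.30 with a median of 2.10 in untreated spleen. The arrays gave 0.93, 1.31, 0.39 and 1.45 at 5 days, 1.20, 1.16, 1.22 and 0.88 at 7 days and 0.33, 1.20, 1.53 and 1.70 at 9 days. Every array at 5 and 7 days lay below the untreated ones, and at 9 days the groups overlapped. Klrb1c was lower, with a difference of -0.96 ± 0.24 (adjusted p = 0.00243) at 5 days and -0.87 ± 0.24 (adjusted p = 0.0116) at 7 days. Against control ODN in the same run the 7 days difference was -0.97 ± 0.26, and it was not called without control ODN replicate 1, the highest control array (-0.77, adjusted p = 0.0522). At 9 days (-0.79 ± 0.24) the call was lost without untreated replicate 1 (-0.73, adjusted p = 0.053) or CpG 9 days replicate 1 (-0.51, adjusted p = 0.173).

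Klrb1b encodes an inhibitory receptor for the Clec2d product. It read from -0.15 to 0.44 with a median of 0.06 in untreated spleen and -0.68, -0.64, -0.39 and -0.46 at 5 days, when all arrays were below the untreated ones. Klrb1b was lower, with a difference of -0.62 ± 0.13 (adjusted p = 0.000567) at 5 days. Its 2 features disagreed: 1 fell by 1.07 at 5 days and the other differed by -0.05 ± 0.17 (adjusted p = 0.845). At 72 h, 7 days and 9 days the differences were -0.38 ± 0.13, -0.41 ± 0.13 and -0.47 ± 0.13. Those calls were lost without untreated replicate 5 in each case, and also without untreated replicates 2, 4 or 6 or CpG 72 h replicates 1, 2 or 3 at 72 h (-0.28 to -0.43 in all, adjusted p = 0.0587 to 0.213). At 7 days untreated replicates 2 and 6 and CpG 7 days replicates 2, 3 and 4 also decided the call (-0.34 to -0.42, adjusted p = 0.0519 to 0.114), and at 9 days CpG 9 days replicate 4 did (-0.38, adjusted p = 0.102). Klrb1b was not called at 72 h against control ODN of the same run (-0.16 ± 0.15, adjusted p = 0.503). Nor was it called there at 7 days (-0.19 ± 0.15, adjusted p = 0.372). Klrb1a had a value on 32 of 42 arrays and was never called.

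CD94, NKG2 and related receptors. Klrk1 (NKG2D) rose early and stayed up to 72 h. In untreated spleen its level ran from 1.54 to 2.37 with a median of 1.87. It was 2.86, 2.49, 2.72 and 2.64 at 3 h and 3.08, 2.84, 2.57 and 2.29 at 9 h, 3.54, 2.62, 3.05 and 2.82 at 24 h and 3.26, 2.97, 3.01 and 2.59 at 72 h. Every array at 3 h, 24 h and 72 h was above every untreated one. Klrk1 was higher by 0.75 ± 0.17 (adjusted p = 0.00143) at 3 h, 0.77 ± 0.17 at 9 h, 1.08 ± 0.17 (adjusted p = 1.7e-05) at 24 h and 1.03 ± 0.17 at 72 h. By 7 days the arrays were back at 1.87, 1.92, 2.02 and 1.82. At 5 days the difference of 0.45 ± 0.17 lost its call without untreated replicate 3, 4, 5 or 6 or CpG 5 days replicate 1, 2 or 3 (0.38 to 0.46, adjusted p = 0.0596 to 0.115).

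The 3 features of Klrk1 did not move alike. The difference at 24 h was 1.66 ± 0.23 and 1.28 ± 0.31 for 2 features, and 0.29 ± 0.15 (adjusted p = 0.241) for the third, which had the lowest level in untreated spleen (-0.12 against 2.74 and 3.16). With runs as a fixed block the Klrk1 difference was 0.46 at 3 h, 0.48 at 9 h and 0.62 at 24 h and was called at none of them (adjusted p = 0.595, 0.845 and 0.522). Against control ODN in the same run it was 1.09 ± 0.18 at 72 h (adjusted p = 0.000112).

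Klrd1 (CD94), which pairs with the NKG2 chains, was not called at any time against untreated. It ran from 3.31 to 5.16 with a median of 4.69 in untreated spleen, with untreated replicate 5 the lowest by far. At 72 h the arrays read 5.52, 5.25, 5.03 and 3.99, which overlaps the untreated values, and the 95% interval of the difference was -0.21 to 0.95. At 7 days they read 3.58, 4.05, 4.22 and 3.40, and against control ODN of the same run Klrd1 was lower, with a difference of -1.25 ± 0.31 (adjusted p = 0.00326). Klrc1 (NKG2A) differed by 1.14 ± 0.57 at 72 h, with an interval of -0.01 to 2.29. All 72 h arrays (4.19 to 4.76) lay above the untreated ones (2.11 to 4.01). The spread behind this interval is shared by all groups and includes the 5 days arrays, whose SD was 2.75. Klrc1 was called higher at 72 h only against control ODN (1.78 ± 0.62), a call lost without any 1 of the 4 CpG 72 h arrays or without control ODN replicate 1, 2 or 3 (1.60 to 1.87, adjusted p = 0.0599 to 0.122). Klre1, whose rat counterpart pairs with the Klri receptors, rose by 0.60 ± 0.20 at 24 h and 0.85 ± 0.20 (adjusted p = 0.00429) at 72 h. Its 24 h call was lost without CpG 24 h replicate 1, 2 or 3 or untreated replicate 3, 4, 5 or 6 (0.48 to 0.63, adjusted p = 0.0566 to 0.17). Klrc3 fell by 0.90 at 5 days, on 3 arrays with a value, and lost its call without CpG 5 days replicate 1 or untreated replicate 1, 2, 3, 4 or 6 (-0.77 to -0.93, adjusted p = 0.0517 to 0.103). Klrg1, an inhibitory receptor for cadherins on mature NK cells and effector T cells, fell by 0.61 at 5 days, a call lost without CpG 5 days replicate 2, 3 or 4 or untreated replicate 1, 2 or 6 (-0.47 to -0.60, adjusted p = 0.0523 to 0.147). Klrg2 was higher at 5 days (0.42 ± 0.16) and 9 days (0.49 ± 0.16). Both calls were lost without untreated replicate 1, 5 or 6, and also without CpG 5 days replicate 1, 3 or 4 (0.34 to 0.45, adjusted p = 0.0517 to 0.118) or CpG 9 days replicate 2, 3 or 4 (0.40 to 0.50, adjusted p = 0.051 to 0.139). Klri2 was not called against untreated.

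Other NK receptors. Cd160, which encodes a receptor of NK cells and cytotoxic T cells that binds the TNF receptor family member HVEM, was higher from 24 h to 7 days. It read from 1.12 to 2.09 with a median of 1.45 in untreated spleen. The arrays gave 3.65, 2.93, 2.58 and 1.84 at 24 h, 3.66, 3.66, 3.81 and 2.50 at 72 h, 3.32, 3.01, 2.93 and 1.90 at 5 days and 2.80, 2.41, 2.61 and 2.43 at 7 days. The fourth array was lowest at 24 h, 72 h and 5 days, and at 72 h and 7 days all arrays lay above the untreated ones. Cd160 was higher by 1.83 ± 0.30 (adjusted p = 5.4e-05) at 72 h and by 1.22 ± 0.30 (adjusted p = 0.00194) at 5 days. It was higher by 1.18 ± 0.30 at 24 h, a call lost without CpG 24 h replicate 1 (0.88, adjusted p = 0.0663) or with runs as a fixed block (0.70, adjusted p = 0.696). The 7 days difference (0.99 ± 0.30) lost its call without CpG 7 days replicate 1 (0.91) or 3 (0.97), with adjusted p = 0.0595 and 0.0521. Against control ODN in the same run the 72 h difference was 1.67 ± 0.33 (adjusted p = 0.000587). The 7 days difference was 0.82 ± 0.33 there and not called (adjusted p = 0.0614).

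Ncr1 encodes NKp46, the activating receptor that marks NK cells most closely. Its level ran from 3.37 to 4.64 with a median of 3.94 in untreated spleen. It read 5.14, 4.97, 5.03 and 4.51 at 24 h and 5.22, 5.12, 4.86 and 4.08 at 72 h, and 2.94, 3.39, 2.47 and 3.06 at 9 days. The 24 h arrays were high and close together, while the 9 days arrays were low, with 1 just inside the untreated range. The differences at 24 h (0.90 ± 0.31, adjusted p = 0.0526) and 72 h (0.81 ± 0.31, adjusted p = 0.07) missed the threshold. Ncr1 was lower at 9 days, with a difference of -1.05 ± 0.31 (adjusted p = 0.0196), a call lost without untreated replicate 1 (-0.92, adjusted p = 0.0521) or CpG 9 days replicate 3 (-0.88, adjusted p = 0.0921). Against control ODN in the same run Ncr1 was lower, with a difference of -0.91 ± 0.34 at 7 days and -1.15 ± 0.34 at 14 days. The 7 days call was lost without control ODN replicate 1, 3 or 4 or CpG 7 days replicate 1 or 4 (-0.74 to -0.94, adjusted p = 0.0505 to 0.16), and the 14 days call without control ODN replicate 1 or 3 or CpG 14 days replicate 1, 2 or 3 (-0.96 to -1.24, adjusted p = 0.0591 to 0.129). Cd244a (2B4), the receptor for CD48, rose by 0.79 ± 0.21 (adjusted p = 0.0109) at 72 h alone among the 8 times, a call lost without CpG 72 h replicate 1 or 2 (both 0.67, adjusted p = 0.0568 and 0.0634). Cd226 (DNAM-1), an activating receptor for the nectin-like protein PVR, was higher late, by 0.61 ± 0.18 (adjusted p = 0.00859) at 5 days and 0.93 ± 0.18 (adjusted p = 0.000498) at 9 days.

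The adaptor. Tyrobp (DAP12) carries the signal of activating Ly49 receptors and is also abundant in macrophages, monocytes and neutrophils. It ran from 3.07 to 3.64 with a median of 3.40 in untreated spleen. The arrays read 2.83, 3.04, 2.94 and 2.77 at 9 h, 4.16, 4.34, 5.01 and 3.90 at 24 h and 4.07, 4.11, 4.71 and 3.91 at 72 h. The 9 h arrays were all below and the 24 h and 72 h arrays all above the untreated ones. Tyrobp rose by 0.95 ± 0.20 (adjusted p = 0.00105) at 24 h and 0.79 ± 0.20 (adjusted p = 0.00657) at 72 h, and the 72 h call was lost without CpG 72 h replicate 3 (0.62, adjusted p = 0.06). With runs as a fixed block the 24 h difference was 1.38 (adjusted p = 0.203). At 9 h the difference was -0.51 ± 0.20 (adjusted p = 0.111). Tyrobp was not called at 72 h against control ODN of the same run (0.33 ± 0.22, adjusted p = 0.305). The mean of 9 monocyte and macrophage markers, from 1.43 to 2.05 on untreated arrays, ranged from 2.54 to 2.86 at 24 h and from 2.44 to 2.83 at 72 h. Of the 9, 3 were higher at 24 h and 2 at 72 h, against 8.03% and 8.94% of all genes. The part of these markers in the Tyrobp result was not tested.

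Granule, death ligand and chemokine genes. Xcl1 encodes lymphotactin, a chemokine of activated NK and CD8 T cells that draws cross-presenting dendritic cells. In untreated spleen it ran from 2.35 to 4.07 with a median of 3.44. The values were 4.98, 5.38, 5.45 and 4.65 at 3 h and 4.79, 5.40, 4.67 and 3.19 at 9 h, then 5.32, 4.86, 4.87 and 4.20 at 24 h and 5.47, 5.31, 5.92 and 4.24 at 72 h. All arrays at 3 h, 24 h and 72 h were above the untreated ones. At 5 days the arrays gave 5.58, 4.04, 4.65 and 4.42, and at 14 days 4.03, 4.05, 3.84 and 3.87, close to each other and near the top of the untreated range. Xcl1 was higher by 1.83 ± 0.35 (adjusted p = 0.000202) at 3 h, 1.52 ± 0.35 at 24 h, 1.94 ± 0.35 (adjusted p = 0.000245) at 72 h and 1.38 ± 0.35 at 5 days.

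The Xcl1 difference at 9 h (1.22 ± 0.35) lost its call without untreated replicate 5 or 6 or CpG 9 h replicate 1, 2 or 3 (0.92 to 1.17, adjusted p = 0.0616 to 0.143). That at 7 days (1.00 ± 0.35) lost it without untreated replicate 1, 3, 5 or 6 or CpG 7 days replicate 2, 3 or 4 (0.81 to 1.06, adjusted p = 0.0563 to 0.171). With runs as a fixed block Xcl1 differed by 1.16 at 3 h, 0.49 at 9 h and 0.62 at 24 h, with no call (adjusted p = 0.489, 0.949 and 0.795). Xcl1 was higher at 72 h against control ODN of the same run (1.27 ± 0.39). That call was lost without control ODN replicate 2 or CpG 72 h replicate 1 or 3 (1.04 to 1.19, adjusted p = 0.0531 to 0.0828). At 7 days the same-run difference was 0.32 ± 0.39 and not called (adjusted p = 0.577).

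Nkg7, a granule membrane protein needed for degranulation, rose at 72 h only, by 1.09 ± 0.26 (adjusted p = 0.00393). It ran from 1.36 to 2.25 with a median of 1.68 in untreated spleen and read 3.58, 3.34, 2.19 and 2.21 at 72 h, where a pair of arrays was far above and the other pair within or at the edge of the untreated values. Nkg7 was not called at 72 h against control ODN of the same run (0.71 ± 0.28, adjusted p = 0.0753). Fasl, the death ligand of cytotoxic cells, had a value on 36 of 42 arrays. It ran from 0.60 to 1.47 with a median of 1.18 in untreated spleen, 1.93, 2.04, 2.45 and 1.56 at 72 h and 0.49, 0.16, 0.42 and 0.56 at 14 days. The 72 h arrays were all above and the 14 days arrays all below the untreated ones. Fasl was higher by 0.87 ± 0.21 (adjusted p = 0.00591) at 72 h, a call lost without the arrays that lack many features (0.62, adjusted p = 0.0815). The rise at 3 h (0.66 ± 0.21) lost its call without untreated replicate 1, 5 or 6 or CpG 3 h replicate 3 or 4 (0.53 to 0.66, adjusted p = 0.0575 to 0.174). The fall at 14 days (-0.71 ± 0.21) lost it without untreated replicate 1, 2, 3, 4 or 6 or any 1 of the 4 CpG 14 days replicates (-0.63 to -0.76, adjusted p = 0.0595 to 0.161). Fasl was not called at 72 h against control ODN of the same run (0.49 ± 0.23, adjusted p = 0.151). At 14 days it was lower there (-1.10 ± 0.23, adjusted p = 0.0088). Ctsw, the cathepsin of NK and cytotoxic T cells, was not called against untreated, with 0.62 ± 0.27 at 24 h (interval 0.07 to 1.18).

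Transcription factors. Tbx21 (T-bet) and Eomes specify NK cells together, and neither was called at 24 h or 72 h. Tbx21 read from 0.50 to 0.84 with a median of 0.62 in untreated spleen, 0.68, 0.47, 0.24 and 0.95 at 72 h and 0.11, -0.02, -0.06 and -0.29 at 14 days. The 72 h arrays overlapped the untreated ones, and the 14 days arrays lay below them all. Tbx21 was lower, with a difference of -0.70 ± 0.16 (adjusted p = 0.00775) at 14 days, a call lost without the arrays that lack many features (-0.62, adjusted p = 0.124). At 72 h its difference was -0.06 ± 0.16, with an interval of -0.37 to 0.26. Tbx21 was not called at 14 days against control ODN of the same run (-0.30 ± 0.17, adjusted p = 0.277). Eomes ran from 1.61 to 2.24 with a median of 1.84 in untreated spleen, 2.47, 2.52, 2.20 and 1.81 at 72 h and 2.58, 2.61, 2.57 and 3.48 at 9 days. The fourth 9 days array stood apart, but all 4 were above the untreated ones. Eomes was higher at 9 days by 0.93 ± 0.19 (adjusted p = 0.00127). Of its 2 features 1 rose by 1.47 ± 0.19 and the other differed by 0.39 ± 0.39 (adjusted p = 0.569).

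CpG ODN against control ODN at 3 h. This comparison asks what at 3 h depends on the CpG mixture. Of 35 members 2 were higher and 1 lower, where 9.23% of all genes were higher and 11.5% lower. Klrk1 was higher by 0.81 ± 0.18 (adjusted p = 0.00164), with every CpG array above every control ODN array (2.29, 1.89, 1.77 and 1.53). Xcl1 was higher by 1.15 ± 0.39 (adjusted p = 0.0297), again with no overlap with the control ODN values (4.42, 3.37, 4.00 and 4.07). Its call was lost without control ODN replicate 2 or 3 or CpG 3 h replicate 2 or 3 (0.95 to 1.16, adjusted p = 0.0611 to 0.105). Tyrobp was lower, with a difference of -0.71 ± 0.22 (adjusted p = 0.0171), from 4.24, 4.00, 3.94 and 3.28 with control ODN to 3.02, 3.01, 3.52 and 3.07 with CpG ODN, and the groups overlapped. Without control ODN replicate 1 it was not called (-0.58, adjusted p = 0.08). Klra2 stood above all control ODN arrays (-0.19, -0.40, -0.05 and -0.20), but its difference of 0.56 ± 0.24 was not called (adjusted p = 0.0855). Without control ODN replicate 4, 5 members were called. The 2 groups lie in different runs.

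From 72 h to 5 and 14 days. Between 72 h and 5 days 13 of 34 members fell and 1 rose, where 2.18% of all genes fell and 1.24% rose (3.42% in all). The median member differed by -0.73. The members that fell were Klra3 (-1.39 ± 0.18), Klra4 (-1.65 ± 0.22), Klra5, Klra6, Klra10, Klra13-ps, Klra16 (-1.41 ± 0.25), Klra22 and Klra23 of the Klra group, with Klrc1, Klrc3, Klre1 (-1.18 ± 0.22) and Tyrobp, and Cd226 rose (0.67 ± 0.20). Klra3, Klra4, Klra6, Klra16, Klra22 and Klre1 kept their call without any 1 of the 8 arrays, and the other 8 did not. Klrc1 read 4.76, 4.31, 4.25 and 4.19 at 72 h and 3.39, 3.80, 3.02 and -2.07 at 5 days, so that replicate 4 stood far below the others. Its difference was -2.34 ± 0.62 with that array and -0.97 (adjusted p = 0.128) without it. The Klrc1 call was also lost without CpG 72 h replicate 1, 2 or 3 (-2.21 to -2.38, adjusted p = 0.0512 to 0.0805), and that of Klrc3 without CpG 72 h replicate 3 (-1.36, adjusted p = 0.057). For Cd226, Klra5, Klra10, Klra13-ps, Klra23 and Tyrobp the call was lost without 4 to 7 of the 8 arrays, taken singly. The count depended on single arrays: it was 6 without CpG 5 days replicate 4, and 7 to 9 without CpG 72 h replicate 1, 2 or 3 or CpG 5 days replicate 1 or 2. Klra2 differed by -0.16 ± 0.24 over the same interval (adjusted p = 0.78). The 5 days arrays lie in other runs than those of 72 h.

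The arrays at 14 days and 72 h lie in 1 run. There 24 of 34 members were lower at 14 days and 1 higher, where 15.5% of all genes were lower and 13.6% higher (29.1% in all). The median member differed by -1.04 against -0.02 for all genes. Of the 13 Klra genes 12 were lower, led by Klra23 (-2.08 ± 0.28, adjusted p = 1.18e-06) and Klra16 (-1.72 ± 0.25, adjusted p = 6.01e-06), and Klra17 was the one that was higher (0.54 ± 0.21). Fasl (-1.58 ± 0.23), Ncr1 (-1.43 ± 0.34), Xcl1 (-1.29 ± 0.39), Nkg7 (-1.24 ± 0.28), Cd160 (-1.15 ± 0.33) and Tbx21 (-0.65 ± 0.17) were lower as well. No Klrb1 gene was called in this comparison. Of the 25 calls 19 were kept without any 1 of the 8 arrays. Klra17 lost its call without CpG 14 days replicate 2 or 4 or any 1 of the 4 CpG 72 h arrays (0.36 to 0.59, adjusted p = 0.0524 to 0.233), and Xcl1 without CpG 72 h replicate 3 (-1.06, adjusted p = 0.0542). The others that lost it were Cd244a, Klrc3, Klri2 and Tyrobp. Leaving out any 1 array gave 22 to 24 calls, but leaving out the arrays that lack many features gave 14. Over all genes that fit called 1374 of 14624. Comparisons that share the 72 h or the untreated arrays are not independent of each other.

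**Figure D3:**
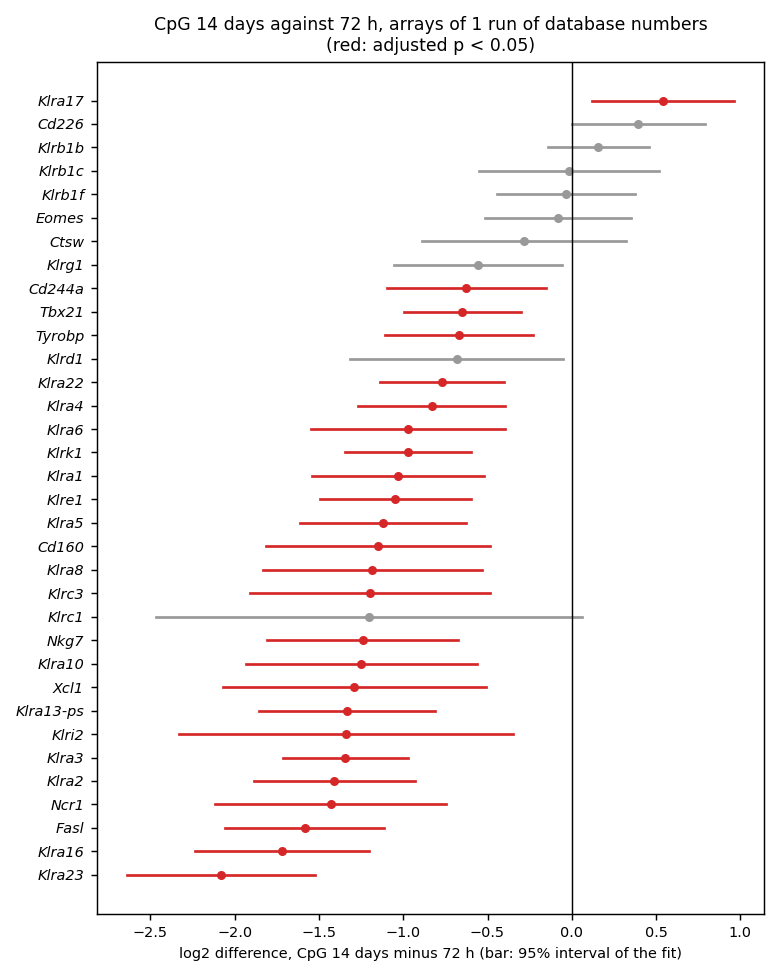
Log2 difference of CpG 14 days minus CpG 72 h for each member tested (points) with the 95% interval of the fit (bars), red where adjusted p is below 0.05. Klra23 fell by 2.08, 24 of 34 members lie to the left of 0 in red, and Klra17 is the one to the right in red.

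Partners of the receptors. The 17 adaptors and kinases of NK receptors had a median difference of -0.06 at 72 h, against 0.02 for all genes. Of them 1 rose and none fell, where 8.94% of all genes were higher and 6.01% lower. That gene was Fcer1g, the adaptor of Fc receptors and of NKp46, which was higher at 3 h (0.95 ± 0.17), 9 h (1.41 ± 0.17), 24 h (1.69 ± 0.17) and 72 h (1.17 ± 0.17). It is also expressed widely in myeloid cells. Sh2d1b1, the adaptor EAT-2 of 2B4-type receptors, was higher at 9 h (0.84 ± 0.19) and 24 h (0.62 ± 0.19). At 5 days, when 17.5% of all genes were higher and 13.4% lower, none of the 17 rose and 5 fell, among them Lat (-0.77 ± 0.22), Hcst (-0.73 ± 0.20), Vav1 (-0.71 ± 0.15) and Grb2 (-0.44 ± 0.13). Hcst encodes DAP10, the adaptor of NKG2D.

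Of 18 ligands 6 were higher and 1 lower at 24 h, where 8.03% of all genes were higher and 2.87% lower. The median ligand differed by 0.34 against 0.02 for all genes. Raet1d (1.21 ± 0.15) and Raet1e (1.05 ± 0.24), ligands of NKG2D, and Cd48 (0.91 ± 0.22), the ligand of 2B4, were higher, and Xcr1, the lymphotactin receptor, was lower (-0.79 ± 0.21). At 3 h 3 of the 18 were higher and 1 lower, against 7.7% and 3.93% of all genes. Among the higher was Fas (1.84 ± 0.19), the receptor of the death ligand. At 72 h Raet1d (1.02 ± 0.15), Ulbp1 (0.66 ± 0.16) and H2-T23 (0.69 ± 0.16), whose product Qa-1 is the ligand of CD94 with NKG2A, were higher and Pvr (-0.62 ± 0.15) lower. At 5 days 2 of the 18 were higher, Ulbp1 (0.66 ± 0.16) and Xcr1 (0.65 ± 0.21), and 3 lower, among them Clec2d (-1.21 ± 0.25) and Clec2i (-0.80 ± 0.22), ligands of NKR-P1 receptors. This share of calls is near that of all genes at 5 days (30.9% in either direction).

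Of 14 cytotoxic effector genes 8 were called at 3 h, all higher, where 7.7% of all genes were higher and 3.93% lower. The median was 0.76 against -0.02 for all genes. The largest differences were those of Ccl4 (4.38 ± 0.21), Ccl3 (3.80 ± 0.24), Gzmb (2.84 ± 0.30) and Serpinb9 (1.42 ± 0.18). These chemokines and the inhibitor of granzyme B are also made by myeloid cells. At 72 h 6 of the 14 were higher, against 8.94% of all genes. Gzmb was still higher by 2.60 ± 0.30 at 72 h, and Gzma by 0.90 ± 0.29. Gzma was then lower than in untreated spleen at 5 days (-0.99 ± 0.29), 9 days (-1.77 ± 0.29) and 14 days (-1.23 ± 0.29), and Gzmb was lower at 14 days (-1.06 ± 0.30).

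Of 19 cytokines and receptors that act on NK cells 5 were higher and 2 lower at 3 h, against 7.7% and 3.93% of all genes. At the top were Il12b (3.67 ± 0.18), Il15 (1.96 ± 0.17), Il18 (1.54 ± 0.21) and Il15ra (1.01 ± 0.10). At 72 h 3 of 18 tested were higher and 1 lower, against 8.94% and 6.01% of all genes. Among these were Il18 (1.31 ± 0.21) and Tgfbr2 (-0.71 ± 0.10). At 5 days 2 of 19 were higher and 4 lower, Il18r1 (-1.41 ± 0.27) among the latter, a share near the 30.9% of all genes called in either direction. At 7 days Il2rb, the shared receptor chain for IL-2 and IL-15, was lower (-0.74 ± 0.24). Of 11 further transcription factors Id2 was higher at 3 h (1.42 ± 0.14). At 72 h none of the 11 was higher and 5 were lower, where 8.94% of all genes were higher and 6.01% lower. The largest falls were those of Klf2 (-1.09 ± 0.24), Gata3 (-0.79 ± 0.19), Ets1 (-0.66 ± 0.22) and Bhlhe40 (-0.62 ± 0.15). Klf2, Gata3 and Ets1 are also strongly expressed by T cells.

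Cell type markers also differed between the groups. The mean over the 36 members was 1.27 ± 0.17 (SD, n = 6) in untreated spleen, 1.77 ± 0.26 (n = 4) at 24 h, 1.95 ± 0.20 (n = 4) at 72 h and 1.21 ± 0.16 (n = 4) at 5 days. The mean of 13 T cell markers ranged from 1.26 to 1.88 on untreated arrays, from 0.90 to 1.22 at 72 h and from 0.55 to 0.87 at 5 days. Of these 7 were lower at 72 h, against 6.01% of all genes. At 5 days 10 were lower and 1 higher, against 13.4% and 17.5% of all genes. The mean of 7 B cell markers was 2.90 to 3.59 on untreated arrays, 2.44 to 2.86 at 72 h and 2.43 to 2.59 at 5 days. Of the 7, 3 were lower at 72 h and 4 at 5 days, against 6.01% and 13.4% of all genes. The mean of 8 neutrophil markers ranged from 2.23 to 3.05 on untreated arrays and from 5.15 to 5.57 at 9 days. At 9 days 7 of the 8 were higher, against 8.4% of all genes.

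Of the 9 NK cell markers, 6 of which are members, 3 were higher and 0 lower at 72 h. At 72 h 8.94% of all genes were higher and 6.01% lower. At 9 days 1 marker was higher and 3 lower, against 8.4% and 5.12% of all genes. The mean of the 9 markers ranged from 2.16 to 3.06 on untreated arrays, 2.84 to 3.48 at 72 h and 2.18 to 2.60 at 9 days. Ly49, NKG2D and CD160 proteins are also found on some T cells and myeloid cells, and the part of cell composition in any of these differences was not tested.

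**Figure D4:**
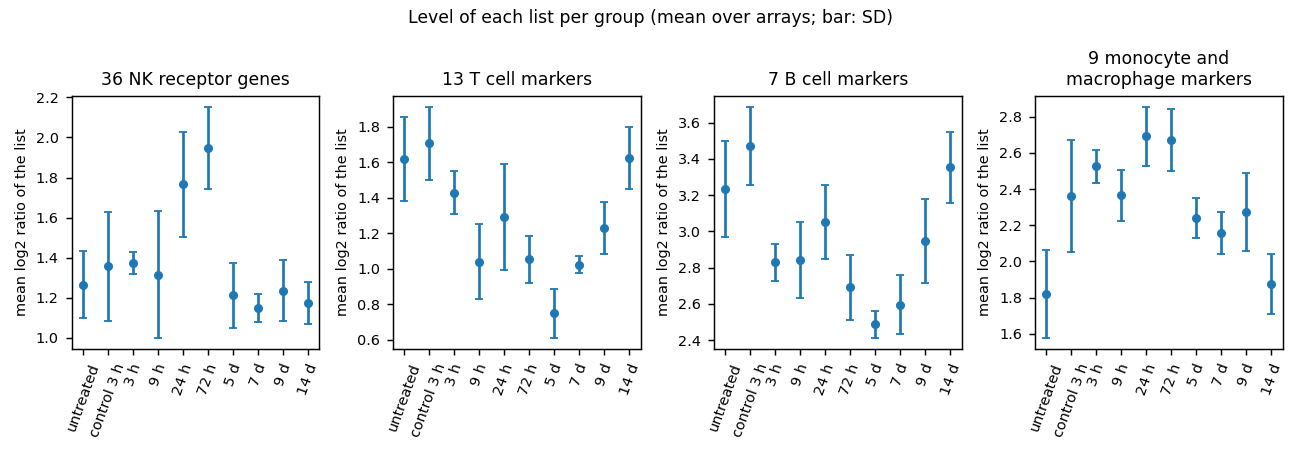
Mean log2 ratio over the genes of a list (vertical axis, not starting at 0) in each group, as the mean over arrays with its SD (bars), for the 36 members, 13 T cell, 7 B cell and 9 monocyte and macrophage markers. The members peak at 72 h (1.95), T cell and B cell markers are lowest at 5 days (0.75 and 2.49), and monocyte and macrophage markers are highest at 24 h (2.69).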

How the data were processed

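The deposited values, per the labels of 2-channel spleen and reference RNA, are one table of 30601 features on 42 arrays, log2 ratios centred near 0 per array. The log base and the direction (Cy5 spleen over Cy3 reference) were inferred from the values and dyes, and the authors' normalization is not given in the sources used here. Symbols came from an old platform annotation: 23485 features had 1 symbol (15277 genes, averaged per gene), 179 several and 6937 none. Missing values were kept missing. One limma 3.58.1 fit (R 4.3.3) held all 42 arrays with 1 coefficient a group. A gene was tested where both groups had at least 3 values, and p was two-sided and Benjamini-Hochberg adjusted over all genes. In simulated data with the CpG 72 h layout (15161 genes), 29.9%, 91% and 100% of changes of 0.5, 1 and 2 were recovered, with 9 false among 156 calls. The simulated noise was independent between genes and between arrays, with no effect of run. These shares therefore do not measure power or error in the real comparison. Per-array values are given for the 12 members called at the most times and for Klrk1, Klrd1, Ncr1, Nkg7, Tbx21, Eomes and Tyrobp. List genes are named from the 4 largest called differences per list and comparison. Members and lists were chosen with earlier results of these data known. Alternatives changed scaling, filters, arrays, blocks, weights, spread, threshold and unit. Comparison with control ODN in 1 run was added after seeing the data. Protein sequences were not used here. Figures and promoters were made with python 3.11.15, biopython 1.88 and matplotlib 3.10.9. The number of arrays limits the precision.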

Additional observations from a re-analysis of the deposited data

Results flagged for a closer look

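Of 341 groups of values over the 36 members, 29 held an array far from the others of its group, where chance flags about 1 in 20 groups. Cd160 was 2.50 on CpG 72 h replicate 4, with the nearest array at 3.66. Eomes was 3.48 on CpG 9 days replicate 4, Klra16 was -0.96 on CpG 5 days replicate 4, and Klra2 was 0.44 on CpG 24 h replicate 2. Klrb1b was 0.11 on CpG 3 h replicate 4. Klrb1c stood apart 3 times, at 2.69 on control ODN replicate 1, 0.70 on CpG 3 h replicate 2 and 0.88 on CpG 7 days replicate 4. Klrd1 was 3.31 on untreated replicate 5 and 3.67 on CpG 9 days replicate 1. Tyrobp was 3.52 on CpG 3 h replicate 3 and 3.16 on CpG 7 days replicate 1. Klrc1 stood apart 3 times, at -2.07 on CpG 5 days replicate 4 (nearest array 3.02), 3.80 on CpG 3 h replicate 2 and 4.07 on CpG 9 days replicate 4. Among other Klra genes, Klra1 was -1.48 on control ODN replicate 4, Klra17 was 0.51 on control ODN replicate 2, Klra3 was 0.95 on CpG 3 h replicate 4 and 1.39 on CpG 9 h replicate 2, Klra5 was -0.41 on CpG 24 h replicate 4 and Klra8 was 0.47 on CpG 5 days replicate 2. Klra13-ps was 0.82 on CpG 3 h replicate 2 and 0.66 on CpG 5 days replicate 4. Cd226 was 3.23 on CpG 5 days replicate 2, Cd244a was 0.49 on CpG 24 h replicate 2 and Ctsw was 1.28 on CpG 9 h replicate 4. Klrb1f was 2.97 on CpG 7 days replicate 3, Klrg1 was -0.16 on CpG 9 days replicate 3 and Klri2 was 2.60 on CpG 24 h replicate 1.

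Differences between time points passed the test of the difference itself in limma. From 24 h to 72 h this held for Klra3 (0.76). From 72 h to 5 days the differences were 0.67 for Cd226, -1.27 for Klra10, -0.97 for Klra13-ps, -1.41 for Klra16, -1.33 for Klra22, -1.04 for Klra23, -1.39 for Klra3, -1.65 for Klra4, -0.83 for Klra5 and -1.30 for Klra6. They were -2.34 for Klrc1, which was -0.97 (adjusted p = 0.128) without the outlying CpG 5 days replicate 4, -1.65 for Klrc3, -1.18 for Klre1 and -0.78 for Tyrobp. These 5 days arrays lie in other runs of database numbers than those of 72 h.

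From 72 h to 14 days, in 1 run, the Klra differences were -1.03 for Klra1, -1.25 for Klra10, -1.33 for Klra13-ps, -1.72 for Klra16, 0.54 for Klra17, -1.41 for Klra2, -0.77 for Klra22 and -2.08 for Klra23. They were -1.34 for Klra3, -0.83 for Klra4, -1.12 for Klra5, -0.97 for Klra6 and -1.18 for Klra8. The other receptors and partners gave -1.15 for Cd160, -0.63 for Cd244a, -1.58 for Fasl, -1.20 for Klrc3, -1.05 for Klre1, -1.34 for Klri2, -0.97 for Klrk1 and -1.43 for Ncr1. The remaining members gave -1.24 for Nkg7, -0.65 for Tbx21, -0.67 for Tyrobp and -1.29 for Xcl1. A feature annotated to both Klra9 and Klra10, outside the genes tested, was 0.74 higher at 72 h than in untreated spleen.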

How the results depend on the processing

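No difference of the 54 called ones of the members described by array reversed under any alternative tried, and of the values computed for them 460 stayed called and 67 did not. With runs as a fixed block only 1 of the 13 differences computed stayed called. Leaving out 1 array entered this tally only at the lowest and the highest difference. Calls lost without other single arrays are therefore not all in it. Counts of members called that moved by over 1.5 times were these. With genes on all arrays the 14 days count was 1 of 26 members, where 604 of 12588 genes were called. With only the 2 groups compared it was 5 at 14 days, 0 for 72 h against 24 h and 3 for 5 days against 72 h. Over all genes that fit called 605, 303 and 28, against 681, 829 and 510 in the fit of all arrays. With runs as a random block the count of members was 4 at 7 days, 1 at 14 days and 9 for 5 days against 72 h. As a fixed block it was 0 at 3 h, 0 at 9 h and 1 at 24 h. Both fits tested 26 members and 12588 genes. The random block called 1869, 426 and 362 of these genes, and the fixed block 392, 142 and 133. Array weights gave 5 at 9 h, 6 at 14 days, 1 for control ODN, 5 for CpG against control ODN, 4 for 72 h against 24 h and 24 for 5 days against 72 h. Over all genes they gave 1937, 1169, 1013, 3779, 2002 and 1940 calls. Without weights these were 1289, 681, 531, 3124, 829 and 510. A trended, robust spread gave 1 at 14 days (688 of 15003 genes), and single features gave 5 there. At an adjusted p below 0.01 counts were 13 at 72 h, 9 at 5 days, 2 at 7 days, 6 at 9 days, 1 at 14 days, 1 for CpG against control ODN and 6 for 5 days against 72 h. Counts over all genes are not given here for that threshold or for single features. Without the 8 arrays that lack many features the counts of members were 13 at 72 h, 9 at 5 days, 0 at 14 days, 5 for 5 days against 72 h and 14 for 14 days against 72 h. Over all genes they were 879, 2577, 82, 78 and 1374, against 2267, 4633, 681, 510 and 4343 with all arrays. Except where the alternative itself uses fewer genes, arrays or a stricter threshold, the cause was not tested.

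Leaving out 1 array at a time gave 3 to 4 calls at 3 h, 2 to 4 at 9 h, 8 to 16 at 24 h, 14 to 21 at 72 h, 10 to 15 at 5 days, 4 to 7 at 7 days, 8 to 11 at 9 days and 1 to 2 at 14 days. It gave 0 to 4 for control ODN, 2 to 5 for CpG against control ODN, 1 in each case for 72 h against 24 h, 6 to 15 for 5 days against 72 h, 22 to 24 for 14 days against 72 h and 27 to 32 in the F test. Leaving out arrays for the remaining called differences of single members was added after seeing the data.

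Over genes with a value on all arrays, deviations from group means were compared between arrays of different groups. For 180 same-numbered pairs the median correlation was 0.0261 (-0.373 to 0.52), against -0.0158 for other pairs, and 63 exceeded 0.1. How many other pairs exceeded 0.1 was not counted, and the members were not checked alone. Whether same-numbered arrays deviate together is therefore not settled here. With the replicate number as a block 3 members were called at 3 h, 2 at 9 h, 9 at 24 h, 16 at 72 h, 13 at 5 days, 8 at 7 days, 10 at 9 days and 3 at 14 days, and 44 of the 54 differences stayed called. Over all genes this block gave 1517, 1033, 1245, 1577, 3928, 2062, 1527 and 858 calls at these times.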
